A study of Mus musculus with 12 samples.

Results

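The genes described here are 37 genes of glycolysis and of the response to low oxygen, taken by symbol from a table of 25904 gene symbols measured in mouse colon, and all 37 were found. They comprise 23 genes of glucose uptake, glycolysis and lactate handling and 14 genes of the hypoxia response. RNA was sequenced from the mid-colon of mice given 3% DSS (dextran sulfate sodium), which injures the colonic lining when drunk and causes colitis. Tissue was taken at 4 times: day 0 (specific-pathogen-free mice, 7 weeks old, at the start), and days 2, 4 and 6 of exposure, with 3 libraries each and 12 in all. The sources used here give no strain or sex, and no library is labelled as water-treated at a later day, so exposure and elapsed time cannot be told apart. Replicates are not described as separate animals, so the p-values measure the spread between these libraries, which may be technical.

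Glycolysis turns glucose into pyruvate in the cytosol, with hexokinase, phosphofructokinase and pyruvate kinase as its near-irreversible steps, and lactate dehydrogenase converts pyruvate to lactate. The hypoxia-inducible factors are pairs of an oxygen-regulated alpha subunit (Hif1a or Epas1) and Arnt. While oxygen is plentiful, the prolyl hydroxylases of the Egln family mark the alpha subunit for destruction, so the factor is known to be controlled largely at the protein level, which RNA does not show. Once stable, the factor binds short motifs near many glycolytic genes. The colonic epithelium borders a lumen almost without oxygen, and hypoxia signalling is well known there.

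Values are CPM, the reads of a gene scaled to the reads of its library, in libraries with 31058912 to 41011005 reads, so that 1 CPM stood for more than 30 reads. The 15246 genes that reached 1 CPM in 3 or more libraries entered the test, and every listed gene had more than 1 CPM in every library. Principal component 1 held 63.0% of the variance between libraries and set days 0 and 2 apart from days 4 and 6. The second held 15.7% and set day 6 replicate 2 apart from the other libraries. Summed marker genes serve as a guide to the cells in the tissue, whose numbers they do not measure. The epithelial markers summed to 4047 to 12186 CPM at day 6, lowest in replicate 2, against 9837 to 13657 CPM at day 0. Of these 8 markers, 1 was called lower at day 6 than at day 0, against 12.4% of all genes. The goblet cell markers summed to 3295 to 8068 CPM at day 6, against 34130 to 77757 CPM at day 0, and all 7 were called lower. The 12 neutrophil markers summed to 373 to 1178 CPM at day 6 and 297 to 394 CPM at day 4, against 10.2 to 13.8 CPM at day 0. All 12 were called higher at days 4 and 6 than at day 0, and 7 of them (S100a8, S100a9, Cxcr2, Mmp8, Trem1, Fpr1 and Clec4d) were at 0 in at least 1 library. The 13 monocyte and macrophage markers summed to 366 to 475, 316 to 453, 828 to 1125 and 1240 to 2303 CPM at days 0, 2, 4 and 6. Skeletal muscle markers, from a tissue outside the mucosa, ran from 10.6 to 125 CPM at day 6, highest in replicate 1, and from 29.7 to 199.7 CPM at day 0, highest in replicate 2. In bulk tissue, fewer cells of a type and less RNA per cell cannot be told apart.

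The stretch around the start of transcription is shown for 6 genes that went different ways in the results below: Pfkfb3, Slc16a3, Bnip3 and Ddit4, which were higher at day 6, Pfkfb4, which was lower, and Ldha, which was not called against day 0. Each runs 5′ to 3′ from 250 bases before to 50 bases after the outermost RefSeq start (GRCm38.p6), and capitals mark the hypoxia response core, ACGTG or GCGTG on either strand (CACGT or CACGC when read on the other). The Pfkfb3 window lies at chr2:11553880-11554179 (minus strand), that of Slc16a3 at chr11:120948817-120949116 (plus strand) and that of Bnip3 at chr7:138909457-138909756 (minus strand). The Ddit4 window lies at chr10:59951721-59952020 (minus strand), that of Pfkfb4 at chr9:108991652-108991951 (plus strand) and that of Ldha at chr7:46845554-46845853 (plus strand).
Pfkfb3: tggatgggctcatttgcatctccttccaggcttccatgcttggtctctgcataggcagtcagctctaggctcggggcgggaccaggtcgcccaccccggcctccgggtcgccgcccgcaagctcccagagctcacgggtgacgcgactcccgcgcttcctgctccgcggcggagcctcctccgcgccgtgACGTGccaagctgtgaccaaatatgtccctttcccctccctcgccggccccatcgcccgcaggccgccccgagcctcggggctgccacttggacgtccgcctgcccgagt
Slc16a3: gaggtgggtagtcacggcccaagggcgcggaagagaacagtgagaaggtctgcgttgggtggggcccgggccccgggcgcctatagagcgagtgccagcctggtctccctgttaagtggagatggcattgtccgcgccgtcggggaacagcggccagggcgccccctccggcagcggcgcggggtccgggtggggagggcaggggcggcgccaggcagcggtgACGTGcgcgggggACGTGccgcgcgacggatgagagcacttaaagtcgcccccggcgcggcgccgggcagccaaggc
Bnip3: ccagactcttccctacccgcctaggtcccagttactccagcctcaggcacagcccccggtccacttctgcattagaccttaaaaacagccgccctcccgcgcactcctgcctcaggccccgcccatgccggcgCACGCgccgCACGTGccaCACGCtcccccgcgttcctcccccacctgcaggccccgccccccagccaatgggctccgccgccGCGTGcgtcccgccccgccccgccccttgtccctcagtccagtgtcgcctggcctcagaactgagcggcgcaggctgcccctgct
Ddit4: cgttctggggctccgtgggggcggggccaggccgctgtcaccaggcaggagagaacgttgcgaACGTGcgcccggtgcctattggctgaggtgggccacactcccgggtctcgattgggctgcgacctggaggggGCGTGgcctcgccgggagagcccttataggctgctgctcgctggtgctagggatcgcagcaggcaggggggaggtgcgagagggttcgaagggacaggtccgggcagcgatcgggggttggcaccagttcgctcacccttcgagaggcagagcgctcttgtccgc
Pfkfb4: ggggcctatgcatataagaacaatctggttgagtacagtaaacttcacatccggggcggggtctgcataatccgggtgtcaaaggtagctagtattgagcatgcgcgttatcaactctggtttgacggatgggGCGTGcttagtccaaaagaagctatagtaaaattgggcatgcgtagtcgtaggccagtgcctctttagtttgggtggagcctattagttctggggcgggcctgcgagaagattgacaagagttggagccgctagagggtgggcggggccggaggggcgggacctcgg
Ldha: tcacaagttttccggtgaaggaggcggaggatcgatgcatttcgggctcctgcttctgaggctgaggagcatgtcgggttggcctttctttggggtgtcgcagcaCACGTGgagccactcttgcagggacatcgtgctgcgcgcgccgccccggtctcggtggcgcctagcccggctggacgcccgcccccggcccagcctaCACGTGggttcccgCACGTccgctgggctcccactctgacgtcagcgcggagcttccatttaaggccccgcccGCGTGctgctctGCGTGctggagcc

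The Ldha window held 7 cores and that of Bnip3 held 5, counting CACGTG, the E-box that other factors also bind, once on each strand. Slc16a3 and Ddit4 had 2 each, and Pfkfb3 and Pfkfb4 had 1 each. These counts are for the outermost start: the window of another Pfkfb3 start held 4 cores, and that of another Ldha start held 2. Windows were at hand for 34 of the 37 genes (48 windows, since some genes have several starts), and not for Slc2a3, Epas1 and Ndrg1. A core stood in at least 1 window of 31 of the 34, against 46.7% of all genes with a window and 52.3% of protein-coding ones. By window the figures were 39 of 48 (81.25%), against 43.8% of all windows. The listed genes' windows were also richer in G and C, with a median of 61.7% against 52.7% for all windows and 56.3% for protein-coding ones. GCGTG is also the core read by the dioxin receptor. The list holds known targets of the hypoxia factors, so an excess of cores over all genes could be foreseen from the choice of genes. Among genes called higher at day 6, 18 of the 19 with a window had a core, the exception being Eno2. Among the others 13 of 15 had one, the exceptions being Gpi1 and Tpi1. A match is a string of letters and says nothing of binding.

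At day 2 none of the 37 genes was called higher or lower than at day 0 with limma, at an adjusted p under 0.05. Of all genes tested, 0.118% were called higher and 0.203% lower. By unadjusted p, 1 listed gene (Hk1) lay above day 0 at 0.05 and 6 lay below. DESeq2 called 1 lower (Aldoc), against 2.34% of all genes, and edgeR called none. The median log2 fold change of the listed genes was -0.01, against 0.04 for all genes. Without a call, 9 of the 37 (24.3%) lay in all 3 day 2 libraries below all 3 day 0 libraries, namely Aldoc, Slc16a3, Pdk1, Ldha, Pgk1, Bnip3, Pgam1, Pfkfb4 and Pfkl, against 12% of all genes. Ldha stood at 932, 763 and 778 CPM at day 2, against 1218, 995 and 1299 CPM at day 0. The fitted difference was -0.50 ± 0.20, adjusted p = 0.283. Another 4 of the 37 (10.8%) lay above day 0 in every library, against 18.7% of all genes. Without day 6 replicate 2, which enters only the estimate of spread, Pdk1 was called lower at day 2 (adjusted p = 0.0492).

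At day 4 genes of the list were called in both directions. Against day 0, 10 of the 37 genes were called higher (27%, against 21.2% of all genes tested) and 5 lower (13.5%, against 12%), so neither share stood far from the background. Hk2 and Hk3, a phosphofructokinase regulator, the lactate exporter and Hif1a rose most, while an aldolase, Pfkfb4, Ndrg1 and Vegfa fell. The median log2 fold change was 0.32 for the listed genes and 0.13 for all genes. With median-of-ratios scaling, which brings that all-gene median to 0.02, 7 listed genes were called higher and 7 lower. The split was 9 and 7 with quantile normalization, 8 and 8 in edgeR and 9 and 8 in DESeq2. Of all genes, the median-of-ratios fit called 15.9% higher and 15.6% lower, and quantile normalization 15.1% and 17.2%. For edgeR the shares were 15.8% and 16.1%, and for DESeq2 18.9% and 19.5%. Hk2, Hk3, Pfkfb3, Gapdh, Slc16a3 and Hif1a among the higher genes, and Pfkfb4, Aldoc, Vegfa and Ndrg1 among the lower, were called without each library in turn and under all other settings run. Without day 6 replicate 2, 17 listed genes were called higher at day 4. The share of all genes called in that fit is not given here, so this count cannot be read against the 21.2%. By library, 17 of the 37 (45.9%) lay at day 4 above all of day 0 and 8 (21.6%) below, against 34.0% and 20.0% of all genes.

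At day 6 most called genes of the list were higher. Against day 0, 21 of the 37 genes were called higher (56.8%, against 23.5% of all genes tested) and 1 lower (2.7%, against 12.4%). All 10 genes higher at day 4 were among the 21, and Pgk1, Pgam1, Eno2, Slc2a1, Slc2a3, Epas1, Adm, Egln3, Bnip3, P4ha2 and Ddit4 joined them. The sole lower gene was Pfkfb4, and Pfkl, Aldoc, Vegfa and Ndrg1, lower at day 4, were not called at day 6. The median log2 fold change was 0.70 for the listed genes and 0.14 for all genes. In 19 of the 37 genes (51.4%) every day 6 library lay above every day 0 library, against 26.6% of all genes, and in 1 below, against 14.4%. Counts of higher and lower genes were 15 and 1 with median-of-ratios scaling and 18 and 1 with quantile normalization. They were 18 and 1 in edgeR and 19 and 2 in DESeq2. Of all genes, the median-of-ratios fit called 17.4% higher and 16.5% lower, and quantile normalization 16.6% and 19.2%. For edgeR the shares were 18.3% and 15.7%, and for DESeq2 21.3% and 19.3%. When the variance was taken from the libraries of days 0 and 6 alone, 12 genes were called higher. The share of all genes in that fit is not given here. In it Slc2a1 (0.069), Hk2 (0.0644), Pfkp (0.0933), Pgk1 (0.0747), Pgam1 (0.166), Eno1 (0.0868), Eno2 (0.104), Epas1 (0.117) and Egln3 (0.0595) were not called.

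**Figure D1:**
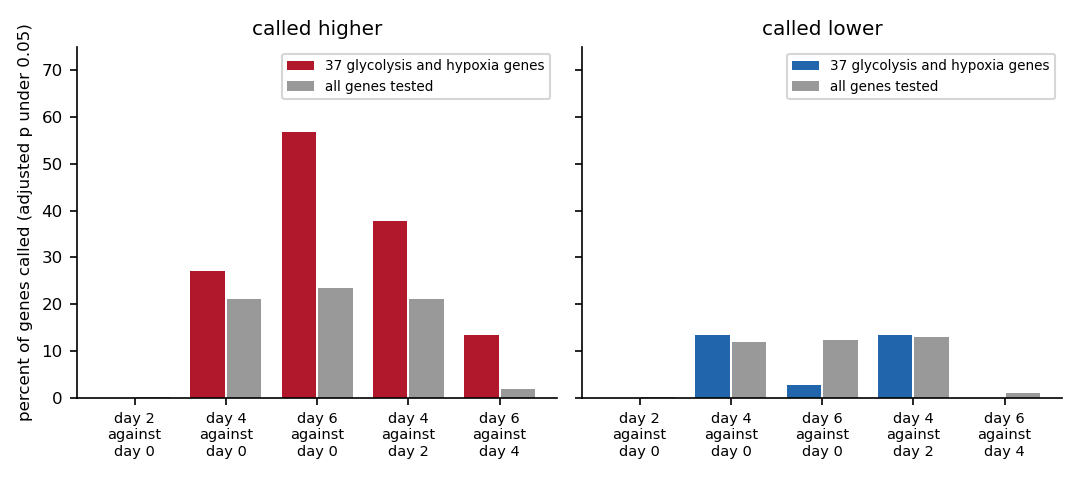
Share of genes called higher (left) or lower (right) in each comparison, in percent, for the 37 glycolysis and hypoxia genes (coloured) and for all 15246 genes tested (grey), at an adjusted p under 0.05 in limma. The widest gap is at day 6 against day 0, with 56.8% of the listed genes higher against 23.5% of all genes.

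Between the days, 14 of the 37 genes were called higher at day 4 than at day 2 (37.8%, against 21.0% of all genes) and 5 lower (13.5%, against 12.9%). By library, 15 (40.5%) lay at day 4 above all of day 2 and 10 (27%) below, against 34.8% and 24.3% of all genes. Day 6 differed from day 4 by 5 higher genes (13.5%, against 1.9% of all genes), while 0.951% of all genes were called lower and no listed one was. By unadjusted p at 0.05, only Hk2 of the list was lower at day 6 than at day 4, and neither edgeR nor DESeq2 called a listed gene lower. The fold change from day 4 to day 6 was positive for 33 of the 37 genes, against 54.2% of all genes. Over the 4 days together the F test called 24 of the 37 (64.9%, against 43.0%). Hk1, Gpi1, Pfkm, Aldoa, Tpi1, Ldhb, Car9 and Egln1 were called in none of these limma tests. The libraries of each day are shared between comparisons, and so is the estimate of spread, so the comparisons are not independent.

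**Figure D2:**
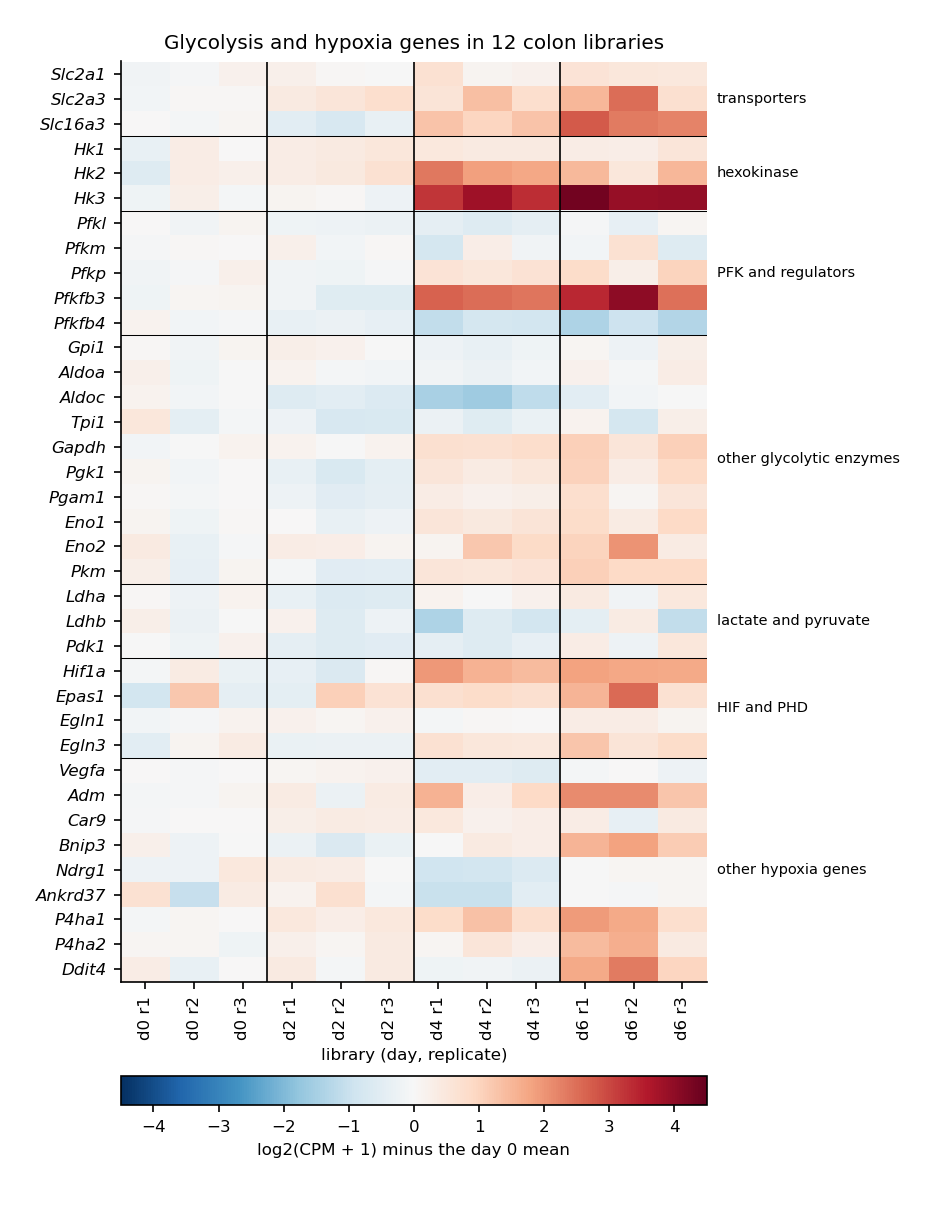
Heat map of log2(CPM + 1) minus the day 0 mean for the 37 genes (rows, grouped by role) in the 12 libraries (columns, d for day and r for replicate), red above and blue below the day 0 mean. Hk3, Pfkfb3, Slc16a3 and Hif1a are red in all 6 libraries of days 4 and 6, and Aldoc, Ndrg1 and Vegfa are blue at day 4 and near the day 0 level at day 6.

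Of the transporters, the lactate exporter changed most. Slc16a3 encodes MCT4, which carries lactate out of strongly glycolytic cells (chr11:120948480-120960868, plus strand, GENCODE M21 on GRCm38). It stood at 16.4, 15.4 and 17.5 CPM at day 0 and 11.6, 9.65 and 12.8 CPM at day 2, then at 41.7, 33.4 and 41.4 CPM at day 4 and 118, 87.6 and 81.03 CPM at day 6. Both steps upward were free of overlap, with 41.7, 33.4 and 41.4 CPM at day 4 above every day 2 library and all of day 6 above all of day 4. The log2 fold change on the CPM + 1 scale was 1.19 ± 0.16 (SE) at day 4 and 2.45 ± 0.16 at day 6 against day 0 (adjusted p = 0.000284 and 1.14e-06). From day 4 to day 6 it was 1.27 ± 0.16, adjusted p = 0.0045. Of all 37 genes it alone was called in all 4 comparisons other than day 2 against day 0.

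The glucose carriers changed less. Slc2a1 encodes GLUT1, the carrier of basal glucose uptake. Its libraries held 124, 133 and 158 CPM at day 0, 161, 143 and 135 CPM at day 2, 225, 149 and 158 CPM at day 4 and 214, 199 and 194 CPM at day 6. All day 6 libraries lay above all of day 0, and the difference was 0.55 ± 0.16, adjusted p = 0.0232. Leaving out day 0 replicate 1 (0.0747) or 2 (0.0571) or day 6 replicate 1 (0.0765) ended that call, as did the fits with median-of-ratios scaling (0.133), in edgeR (0.129) and in DESeq2 (0.116). Slc2a3 encodes GLUT3, a high-affinity carrier of neurons and white blood cells, and was scarce, at 4.63, 5.26 and 5.301 CPM at day 0 and 6.94, 7.91 and 9.27 CPM at day 2 and 8.03, 14.6 and 9.34 CPM at day 4 and 16.2, 33.6 and 9.03 CPM at day 6. It was higher at day 6 than at day 0 by 1.58 ± 0.37, adjusted p = 0.00622, with day 6 replicate 2 far above the other libraries of that day. Per kilobase of exon, Slc2a3 made up 1.77%, 1.88% and 1.595% of the pair's RNA at day 0, 2.04%, 2.61% and 3.22% at day 2, 1.698%, 4.53% and 2.79% at day 4 and 3.53%, 7.56% and 2.205% at day 6. The shares of days 2, 4 and 6 overlapped, and that of day 4 replicate 1 lay within the day 0 range.

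The hexokinases, which trap glucose in the cell as glucose 6-phosphate, parted company. Hk1, the form of most tissues, stood at 184, 293 and 234 CPM at day 0, 293, 309 and 329.6 CPM at day 2, 324, 311 and 312 CPM at day 4 and 297, 286 and 341 CPM at day 6 and was not called at day 4 (0.44 ± 0.16, adjusted p = 0.0585) or day 6 (0.40 ± 0.16, adjusted p = 0.0773). Without day 0 replicate 2 it was called higher at both days (adjusted p = 0.012 and 0.0157), and without day 6 replicate 2 or 3 at day 4 (0.0385 and 0.0469). Hk2, the inducible form and a known target of the hypoxia factors (chr6:82725025-82774454, minus strand), stood at 98.9, 188 and 176 CPM at day 0, 187, 199.9 and 238 CPM at day 2, 779.7, 539 and 499 CPM at day 4 and 406, 209.7 and 421 CPM at day 6. It peaked at day 4, where all 3 libraries lay above those of every other day. The change against day 0 was 1.99 ± 0.31, adjusted p = 0.000618 at day 4 and 1.14 ± 0.31, adjusted p = 0.0142 at day 6. The day 6 call was lost without day 0 replicate 1 (0.0584) or day 6 replicate 1 (0.0601). The difference between day 6 and day 4 was not called (-0.85 ± 0.31, adjusted p = 0.175).

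Hk3, the hexokinase of myeloid cells (chr13:55005985-55021385, minus strand), showed the largest change of the 37 genes. It was the lowest of the 37 per kilobase of exon at day 0, with 0.608 CPM per kilobase. Its libraries held 1.802, 2.896 and 2.02 CPM at day 0 and 2.46, 2.36 and 1.74 CPM at day 2, and 29.1, 44.4 and 30.7 CPM at day 4 and 64.5, 48.1 and 48.5 CPM at day 6. No day 4 or day 6 library overlapped those of day 0 or day 2. The log2 fold change was 3.45 ± 0.21, adjusted p = 8.46e-07 at day 4 and 4.08 ± 0.21, adjusted p = 2.1e-07 at day 6. Neutrophil and macrophage marker sums rose at the same days, as given above, and their part in the change of Hk3 was not tested. Per kilobase, Hk3 was 1.13% of the RNA of the 3 hexokinases at day 0, 0.84% at day 2, 6.55% at day 4 and 13.7% at day 6, and Hk2 was 47.2%, 48.4%, 68.0% and 52.2% at the same days. Hk1 made up the rest, 51.7%, 50.7%, 25.4% and 34.1%. These shares divide by merged exons, 8532 bases for Hk1 against 4278 in its longest coding transcript, and depend on that choice.

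The regulators of phosphofructokinase went opposite ways. Both encode enzymes that make and break fructose 2,6-bisphosphate, the main activator of phosphofructokinase, and Pfkfb3 is the one with the strongest bias to making it. Pfkfb3 (chr2:11471433-11554077, minus strand) stood at 15.5, 19.4 and 19.6 CPM at day 0 and 16.02, 12.2 and 12.1 CPM at day 2, and at 118, 107 and 99.02 CPM at day 4 and 200.1, 311 and 105 CPM at day 6. All libraries of days 4 and 6 lay above all of days 0 and 2, and at day 6 the highest library held 2.97 times the lowest. The change against day 0 was 2.51 ± 0.30, adjusted p = 0.00011 at day 4 and 3.30 ± 0.30, adjusted p = 1.13e-05 at day 6. From day 4 to day 6 it was not called (0.79 ± 0.30, adjusted p = 0.192), except without day 6 replicate 3 (0.00412) and in DESeq2 (0.0492). Pfkfb4 (chr9:108991778-109032228, plus strand), the form best known from testis, was the only listed gene lower at day 6. Its libraries held 46.05, 37.9 and 39.6 CPM at day 0 and 32.5, 34.2 and 31.2 CPM at day 2, then 18.5, 23.5 and 22.8 CPM at day 4 and 14.996, 21.3 and 15.9 CPM at day 6. No library of day 4 or 6 reached the lowest of day 0 or day 2, and the change was -0.90 ± 0.15, adjusted p = 0.00112 at day 4 and -1.21 ± 0.15, adjusted p = 0.000122 at day 6. Per kilobase, Pfkfb3 supplied 22.3 ± 3.87% of the pair's RNA at day 0, 20.9 ± 2.85% at day 2, 76.3 ± 3.71% at day 4 and 87.0 ± 5.21% at day 6 (SD, n = 3), so that the pair changed places between days 2 and 4.

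The phosphofructokinases themselves showed smaller changes. Pfkl, the liver form and the main one at day 0, stood at 255, 228 and 279 CPM at day 0, 223, 214 and 208 CPM at day 2, 192, 168 and 192 CPM at day 4 and 245, 196 and 268 CPM at day 6. It was lower at day 4 than at day 0, with a change of -0.46 ± 0.14, adjusted p = 0.0273 and no overlap, and at day 6 was not called (-0.11 ± 0.14, adjusted p = 0.566). Leaving out day 0 replicate 1 (0.0567) or 3 (0.105) ended the day 4 call, as did leaving out any one day 4 library (0.0548, 0.109 and 0.0582 for replicates 1, 2 and 3). Pfkp, the platelet form, stood at 190.0, 205 and 254 CPM at day 0, 192, 186 and 207 CPM at day 2, 328, 302 and 337 CPM at day 4 and 384, 258 and 433 CPM at day 6. It was higher at day 4 by 0.58 ± 0.19, adjusted p = 0.0317 and at day 6 by 0.71 ± 0.19, adjusted p = 0.0124. The day 4 call was lost without day 0 replicate 1 (0.1002) or 2 (0.0763), without any one day 4 library (0.0825, 0.0614 and 0.0951), with median-of-ratios scaling (0.119) or quantile normalization (0.0551), in edgeR (0.126) and in DESeq2 (0.0852). The day 6 call was lost without day 6 replicate 1 (0.0506) and with median-of-ratios scaling (0.0651). Of Pfkp's 150-base windows 15.0% also stand in the overlapping gene Pitrm1. Pfkm, the muscle form, was not called at any day and held 24.5 to 26.3, 23.3 to 29.8, 14.3 to 31.5 and 16.7 to 41.5 CPM at days 0, 2, 4 and 6. Pfkp's share of the trio, per kilobase, was 26.1%, 26.7%, 41.1% and 37.7% at those days. The merged exons hold 13401 bases for Pfkp and 6675 for Pfkl, against 4145 and 3730 in their longest coding transcripts. This share too depends on the length used.

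**Figure D3:**
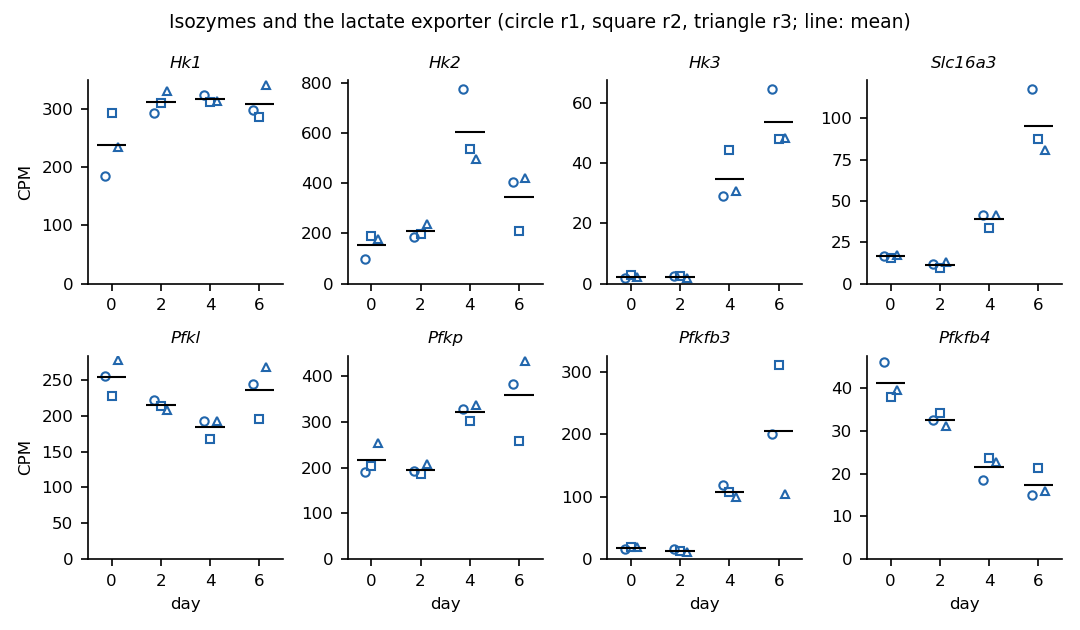
CPM by day for the hexokinases, the lactate exporter Slc16a3, 2 phosphofructokinases and their regulators, with 1 point per library (circle replicate 1, square replicate 2, triangle replicate 3) and a line at the day's mean. Pfkfb3 and Hk3 are higher in all 6 libraries of days 4 and 6 than at days 0 and 2, while Pfkfb4 is lower in all 6.

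Of the 10 genes of enzymes from glucose phosphate isomerase to pyruvate kinase other than phosphofructokinase, 3 were called higher at day 4 (Gapdh, Eno1 and Pkm, against 21.2% of all genes) and 1 lower (Aldoc, against 12%). At day 6, 6 were higher (these 3 and Pgk1, Pgam1 and Eno2, against 23.5% of all genes) and none lower (against 12.4%). Pkm, pyruvate kinase of most tissues (chr9:59656368-59679375, plus strand), was the most abundant of the 37 per kilobase at day 6, with 512 CPM per kilobase. It stood at 1568, 1021 and 1421 CPM at day 0 and 1241, 925 and 941 CPM at day 2, and at 1923, 1885 and 2012 CPM at day 4 and 2781, 2468 and 2435 CPM at day 6. Every library of day 4 exceeded day 0, and every library of day 6 exceeded day 4. The change against day 0 was 0.56 ± 0.19, adjusted p = 0.0442 at day 4 and 0.96 ± 0.19, adjusted p = 0.00277 at day 6, while day 6 against day 4 was not called (0.296). Its day 4 call was lost without any 1 of 8 libraries (0.057 to 0.143), the exceptions being day 0 replicate 1, day 2 replicate 1 and day 6 replicates 2 and 3, and also with median-of-ratios scaling (0.13), in edgeR (0.159) and in DESeq2 (0.0686). The 2 splice forms of pyruvate kinase M cannot be told apart in a gene table.

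The middle steps rose by less than 2-fold and carry a caution about copies. Gapdh, which oxidises glyceraldehyde 3-phosphate, stood at 49.7 to 60.7 CPM at day 0 and 54.7 to 61.4, 88.9 to 96.1 and 79.7 to 117 CPM at days 2, 4 and 6. Its change against day 0 was 0.73 ± 0.15, adjusted p = 0.00343 at day 4 and 0.89 ± 0.15, adjusted p = 0.000867 at day 6. This level was low for a gene that most tissues express strongly, and 74.0% of the 150-base windows of its transcript also stand in 49 other annotated genes. The same share was 66.1% for Pgk1 (2 other genes), 49.0% for Eno1 (2), 37.9% for Pgam1 (1) and 18.5% for Bnip3 (4), and 0 for 27 of the 37 genes. The sources used here do not say how such reads were counted, so these levels are uncertain. Pgk1, the first ATP-forming step, was higher at day 6 by 0.75 ± 0.18, adjusted p = 0.00878, with 427 to 697 CPM at day 6 against 312 to 372 CPM at day 0. Eno1, the common enolase, was higher by 0.53 ± 0.18, adjusted p = 0.0377 at day 4 and 0.70 ± 0.18, adjusted p = 0.00995 at day 6. Its day 4 call ended without day 0 replicate 2 (0.112) or 3 (0.0743), day 2 replicate 3 (0.0569) or day 4 replicate 1, 2 or 3 (0.0962, 0.0731 and 0.11), with median-of-ratios scaling (0.146), in edgeR (0.156) and in DESeq2 (0.0878), and its day 6 call with median-of-ratios scaling (0.0579). Pgam1, phosphoglycerate mutase, was higher at day 6 by 0.47 ± 0.16, adjusted p = 0.0397. That call was lost without any 1 of 10 libraries (0.0506 to 0.157), all but day 2 replicate 1 and day 6 replicate 2, and with no filter (0.0529), median-of-ratios scaling (0.206) or quantile normalization (0.0995), in edgeR (0.154) and in DESeq2 (0.134).

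Eno2, the enolase of neurons, was higher at day 6 by 1.12 ± 0.38, adjusted p = 0.039. It held 24.9, 51.4 and 15.6 CPM at day 6 and 16.03, 9.28 and 11.4 CPM at day 0, so the lowest day 6 library lay within the day 0 range. The call was lost without any 1 of 8 libraries (0.0536 to 0.113), the exceptions being day 0 replicate 1, day 4 replicates 1 and 2 and day 6 replicate 3, and with no filter (0.0595), median-of-ratios scaling (0.0522) or quantile normalization (0.062). Gpi1, Aldoa and Tpi1, which carry the sugar phosphates through the upper steps, were not called with limma in any comparison. Gpi1 was called lower at day 4 than at day 2 with quantile normalization (0.0476), with only those days fitted (0.0184), in DESeq2 (0.017) and without day 6 replicate 2 (0.0331). Gpi1 averaged 711 ± 73.6, 781 ± 78.1, 595 ± 35.5 and 735 ± 122 CPM at days 0, 2, 4 and 6. Aldoa averaged 1003 ± 146, 991 ± 109, 885 ± 43.7 and 1110.3 ± 168 CPM. Tpi1 averaged 690.0 ± 227, 463 ± 89.9, 515 ± 49.4 and 640.1 ± 221 CPM (SD, n = 3). Together, the 16 enzymes from hexokinase to pyruvate kinase took 0.58 ± 0.0724% of reads at day 0, 0.52 ± 0.0505% at day 2, 0.705 ± 0.0335% at day 4 and 0.829 ± 0.119% at day 6. Without Gapdh, Pgk1, Pgam1 and Eno1 the share was 0.466%, 0.426%, 0.545% and 0.642%.

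Aldoc followed another course. This aldolase (chr11:78322968-78327781, plus strand), best known from brain, stood at 20.1, 16.4 and 18.03 CPM at day 0 and 11.8, 12.9 and 11.5 CPM at day 2, and at 5.89, 5.34 and 7.57 CPM at day 4 and 12.8, 16.4 and 17.7 CPM at day 6. The day 4 libraries were the lowest of the 12, and those of day 6 overlapped both day 0 and day 2. The change was -1.41 ± 0.17, adjusted p = 9.29e-05 at day 4 against day 0, and 1.19 ± 0.17, adjusted p = 0.00505 at day 6 against day 4, which brought it near its start (-0.21 ± 0.17, adjusted p = 0.341 at day 6 against day 0). At 1.92 CPM per kilobase at day 4 it remained far below Aldoa at 304 CPM per kilobase.

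None of the genes at the branch from pyruvate was called against day 0 with limma. Ldha, the lactate dehydrogenase subunit that favours lactate (chr7:46841475-46855627, plus strand), was the most abundant listed gene per kilobase at day 0 (354 CPM per kilobase). Its libraries held 1218, 995 and 1299 CPM at day 0, 932, 763 and 778 CPM at day 2, 1296, 1141 and 1317 CPM at day 4 and 1538, 1050.1 and 1616 CPM at day 6. It was not called against day 0 at day 4 (0.10 ± 0.20, adjusted p = 0.714) or day 6 (0.24 ± 0.20, adjusted p = 0.354). Day 4 was higher than day 2 by 0.60 ± 0.20, adjusted p = 0.0323, a call lost without day 2 replicate 2 (0.109) or 3 (0.102) or without day 4 replicate 1, 2 or 3 (0.0943, 0.0542 and 0.103), with median-of-ratios scaling (0.0901) and in edgeR (0.0933). The F test over the 4 days called Ldha (adjusted p = 0.0354), and did not without any 1 of 8 libraries (0.0524 to 0.139), all but day 0 replicates 1 and 2 and day 6 replicates 2 and 3, nor with median-of-ratios scaling (0.105) or in edgeR (0.102). Ldhb, the subunit of oxidative tissue, stood at 27.5, 18.7 and 22.3 CPM at day 0, 26.02, 14.7 and 19.2 CPM at day 2, 7.896, 14.6 and 12.3 CPM at day 4 and 16.5, 29.3 and 9.95 CPM at day 6, with every day 4 library below every day 0 library. The difference at day 4 was not called (-0.94 ± 0.35, adjusted p = 0.0585). It was called lower with median-of-ratios scaling (0.0257), quantile normalization (0.018), edgeR (0.0293) and DESeq2 (0.0066), and without day 6 replicate 2 (0.0149) or 3 (0.0215). Pdk1, which switches pyruvate dehydrogenase off and is a known hypoxia target, held 60.1 to 78.9, 45.2 to 51.9, 45.3 to 53.2 and 58.9 to 97.8 CPM at days 0, 2, 4 and 6. It was called by the F test alone (adjusted p = 0.0161, 0.0507 without day 6 replicate 1). Its difference at day 4 against day 0 was -0.45 ± 0.18, adjusted p = 0.0733, and it was called lower there with median-of-ratios scaling (0.0455), quantile normalization (0.0274), the replicate block (0.0252), only those days fitted (0.0335), edgeR (0.0381) and DESeq2 (0.0182), and without day 6 replicate 2 (0.0124) or 3 (0.0419). Without day 6 replicate 2 it was also called higher at day 6 than at day 0 (0.0384).

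**Figure D4:**
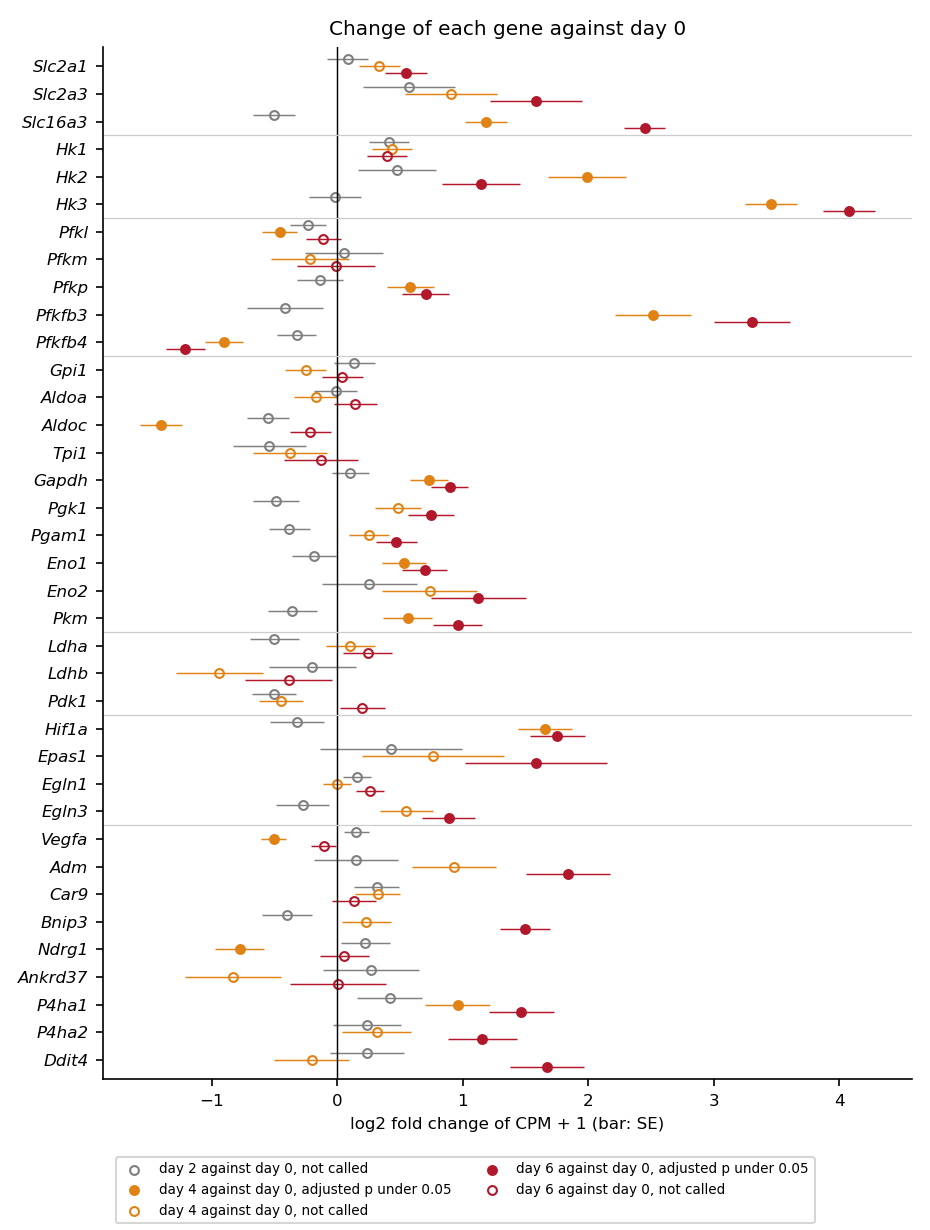
Log2 fold change of CPM + 1 against day 0 for each of the 37 genes at days 2 (grey), 4 (orange) and 6 (red), with bars of 1 standard error and filled points where the adjusted p was under 0.05. No point is filled at day 2, and Hk3, Pfkfb3 and Slc16a3 lie furthest to the right at day 6.

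Of the hypoxia factors and their hydroxylases, Hif1a changed most. Hif1a (chr12:73901375-73947530, plus strand) stood at 103, 144 and 89.99 CPM at day 0 and 85.7, 69.3 and 114 CPM at day 2, and at 432, 329.7 and 297 CPM at day 4 and 389.8, 373 and 357 CPM at day 6. All 6 libraries of days 4 and 6 lay above all 6 of days 0 and 2. The change was 1.66 ± 0.22, adjusted p = 0.000203 at day 4 and 1.75 ± 0.22, adjusted p = 0.000107 at day 6, and from day 4 to day 6 it was not called (0.10 ± 0.22, adjusted p = 0.857). Epas1, which encodes HIF-2 alpha and is strong in endothelium, varied between replicates of a day. It held 36.4, 154 and 49.7 CPM at day 0 and 47.7, 138 and 104 CPM at day 2, and 108, 118 and 109.6 CPM at day 4 and 189.8, 386 and 106 CPM at day 6. The call at day 6 (1.58 ± 0.57, adjusted p = 0.0478) was lost without any 1 of 9 libraries (0.0521 to 0.179), the exceptions being day 0 replicate 2, day 2 replicate 1 and day 6 replicate 3, and under 8 other settings (0.0505 to 0.117), among them median-of-ratios scaling, quantile normalization and edgeR. Endothelial markers scored 5.66, 6.47 and 4.91 in day 6 replicates 1, 2 and 3 (mean log2(CPM + 1)), in the same order as Epas1. At day 4 they scored 4.75, 5.39 and 5.13, also in its order. At day 2 the order was the reverse (4.72, 4.55 and 4.66), and at day 0 it differed (4.40, 4.46 and 4.48). The part of endothelial cells in the Epas1 values was not tested.

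The prolyl hydroxylase Egln3 (PHD3), itself a known hypoxia target, was higher at day 6 than at day 0, and Egln1 (PHD2), the main oxygen sensor, was not called with limma. Egln3 (chr12:54178981-54203860, minus strand) stood at 32.2, 50.3 and 58.8 CPM at day 0, 36.99, 38.1 and 37.6 CPM at day 2, 74.5, 65.1 and 63.2 CPM at day 4 and 109, 69.7 and 81.7 CPM at day 6. The day 6 difference was 0.89 ± 0.21, adjusted p = 0.00733, and at day 4 it was not called (0.55 ± 0.21, adjusted p = 0.0659) although all its libraries lay above day 0. It was called there without day 0 replicate 3 (0.0332) or day 6 replicate 2 (0.0373). Against day 2, Egln3 was called higher at day 4 (0.83 ± 0.21, adjusted p = 0.0107), with no overlap. That call was kept without each library in turn. Egln1 stood at 62.7, 65.6 and 75.1 CPM at day 0, 77.6, 71.9 and 77.2 CPM at day 2, 63.8, 70.5 and 68.8 CPM at day 4 and 84.95, 86.2 and 73.4 CPM at day 6, with 0.26 ± 0.11, adjusted p = 0.0877 at day 6. Without day 6 replicate 3 it was called higher at day 6 (0.0374), and DESeq2 called it lower at day 4 than at day 2 (0.0172) and changed over the 4 days (0.0427).

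The remaining hypoxia genes split by time. Against day 0, Ddit4, Bnip3, P4ha1, P4ha2 and Adm were higher at day 6, of which P4ha1 alone was also called at day 4. Ddit4 encodes REDD1, an inhibitor of the growth kinase mTORC1 (chr10:59949669-59951834, minus strand). It stood at 90.2, 55.4 and 70.9 CPM at day 0 and 93.4, 65.9 and 94.6 CPM at day 2, and at 62.2, 63.1 and 58.7 CPM at day 4 and 236, 359.9 and 139 CPM at day 6. The 3 day 6 libraries exceeded the other 9, and the change was 1.67 ± 0.30, adjusted p = 0.00125 against day 0 and 1.87 ± 0.30, adjusted p = 0.00833 against day 4. At day 4 it was not called (-0.20 ± 0.30, adjusted p = 0.624). Bnip3, a receptor that marks mitochondria for removal (chr7:138890836-138909519, minus strand), stood at 21.1, 15.04 and 17.6 CPM at day 0 and 14.5, 11.05 and 14.3 CPM at day 2, and at 17.7, 23.9 and 21.9 CPM at day 4 and 53.2, 64.8 and 40.6 CPM at day 6. It too was highest in the day 6 libraries, by 1.5 ± 0.20, adjusted p = 0.000169 against day 0 and 1.26 ± 0.20, adjusted p = 0.00817 against day 4. Bnip3 was also called higher at day 4 than at day 2 (0.64 ± 0.20, adjusted p = 0.0282), with no overlap. That call was lost without day 2 replicate 2 (0.115) or 3 (0.0506) or day 4 replicate 2 (0.103) or 3 (0.0848). With quantile normalization (0.0787) it was lost as well. Of Bnip3's exon bases 22.3% overlap Gm45507 on the other strand.

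Both listed collagen prolyl 4-hydroxylase alpha subunits, which make collagen stable and need oxygen to do so, were higher at day 6. P4ha1 (chr10:59323296-59373304, plus strand, on the chromosome of Ddit4) stood at 29.8, 34.01 and 31.97 CPM at day 0 and 44.9, 39.2 and 44.9 CPM at day 2, and at 56.6, 81.2 and 54.02 CPM at day 4 and 124, 106 and 54.7 CPM at day 6. It was higher by 0.96 ± 0.26, adjusted p = 0.0152 at day 4 and 1.47 ± 0.26, adjusted p = 0.00123 at day 6. The day 4 call was lost without day 0 replicate 1 (0.0504) or day 4 replicate 2 (0.0669). P4ha2 was higher at day 6 by 1.16 ± 0.27, adjusted p = 0.00699, with 33.97, 38.8 and 16.2 CPM at day 6 against 12.8, 12.8 and 10.3 CPM at day 0. Fibroblast markers, from the cells that make most collagen, summed to 5790 to 14658 CPM at day 6 and 2062 to 3179 CPM at day 0, and their part in these changes was not tested. Adm encodes adrenomedullin, a peptide that widens vessels and tightens endothelium, and was scarce, at 2.82, 2.87 and 3.39 CPM at day 0 and 4.22, 2.31 and 4.16 CPM at day 2 and 11.001, 3.96 and 6.503 CPM at day 4 and 16.7, 16.6 and 8.603 CPM at day 6. Its change at day 6 was 1.84 ± 0.33, adjusted p = 0.00148, with no overlap. At day 4 it was not called (0.93 ± 0.33, adjusted p = 0.0527), and was under 6 other settings (0.0172 to 0.0493), edgeR and DESeq2 among them, and without day 4 replicate 2 (0.0206) or day 6 replicate 2 (0.0375) or 3 (0.0263).

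Vegfa and Ndrg1 dipped at day 4. Vegfa, the growth factor of vessels and a textbook hypoxia target (chr17:46016993-46032369, minus strand), stood at 109, 106 and 111 CPM at day 0, 116, 121 and 125 CPM at day 2, 78.5, 77.4 and 72.3 CPM at day 4 and 101, 109 and 92.6 CPM at day 6. Its 3 day 4 libraries were the lowest of the 12, and its change was -0.51 ± 0.10, adjusted p = 0.00291 against day 0 and -0.66 ± 0.10, adjusted p = 0.000508 against day 2. At day 6 it was not called against day 0 (-0.11 ± 0.10, adjusted p = 0.426), though DESeq2 called it lower (0.00729), and the difference from day 4 missed the threshold (0.40 ± 0.10, adjusted p = 0.0642) except without day 6 replicate 3 (0.0204) and in DESeq2 (0.00152). Ndrg1, a stress-responsive gene of epithelia (chr15:66929318-66969640, minus strand), stood at 238, 240.0 and 392 CPM at day 0 and 363, 355 and 277 CPM at day 2, and at 150.1, 160.1 and 183 CPM at day 4 and 276, 303 and 300.3 CPM at day 6. It too was lowest in the 3 day 4 libraries, with -0.78 ± 0.20, adjusted p = 0.0106 against day 0. The rise from day 4 to day 6 (0.83 ± 0.20, adjusted p = 0.0462) was lost without any 1 of 9 libraries (0.0504 to 0.202), all but day 0 replicates 1 and 3 and day 6 replicate 3, and under 6 other settings (0.0538 to 0.0894), among them median-of-ratios scaling, the replicate block and edgeR. The summed goblet markers were lower at day 4 too, at 14862 to 15926 CPM against 34130 to 77757 CPM at day 0. They were lower still at day 6. At day 4, 3 of the 7 were called lower than at day 0, against 12% of all genes. The part of goblet cells in these changes was not tested.

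Ankrd37, a small hypoxia target, held 3.51, 3.48 and 5.54 CPM at day 4, against 9.102, 14.04 and 7.53 CPM at day 2. It was called lower there (-1.10 ± 0.38, adjusted p = 0.0445), a call lost without any 1 of 8 libraries (0.0518 to 0.165), all but day 0 replicates 1 and 2 and day 6 replicates 2 and 3, and with a pseudocount of 5 (0.0508), no filter (0.068) or the replicate block (0.0548). Of its exon bases 26.4% overlap other genes. Against day 0 it was not called with limma, but was called lower at day 4 in edgeR (0.0396) and DESeq2 (0.0107) and, with limma, without day 0 replicate 2 (0.00407). Car9, a membrane carbonic anhydrase often read as a hypoxia marker, was not called at any day. It averaged 49.8 ± 1.35, 62.1 ± 2.84, 62.7 ± 6.42 and 56.2 ± 15.3 CPM at days 0, 2, 4 and 6 (SD, n = 3). Without day 6 replicate 2, the library lowest in Car9 at day 6, it was called higher at days 4 and 6 (0.0208 and 0.0203).

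Taking day 6 against day 4 alone, the called genes were Ddit4, Slc16a3, Bnip3, Aldoc and Ndrg1. In all 5 the day 6 libraries lay above those of day 4, as they did in 13 of the 37 genes (35.1%, against 9.88% of all genes), while 1 lay below, against 12.5%. These 5 calls rest on a spread estimated over the 12 libraries. With the libraries of days 4 and 6 alone none was called, with adjusted p of 0.113 for Ddit4, 0.0829 for Slc16a3, 0.104 for Bnip3, 0.107 for Aldoc and 0.0894 for Ndrg1. DESeq2 called 9 listed genes higher, against 5.5% of all genes, and 11 were called without day 6 replicate 3. For the latter fit the share of all genes is not given here.

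**Figure D5:**
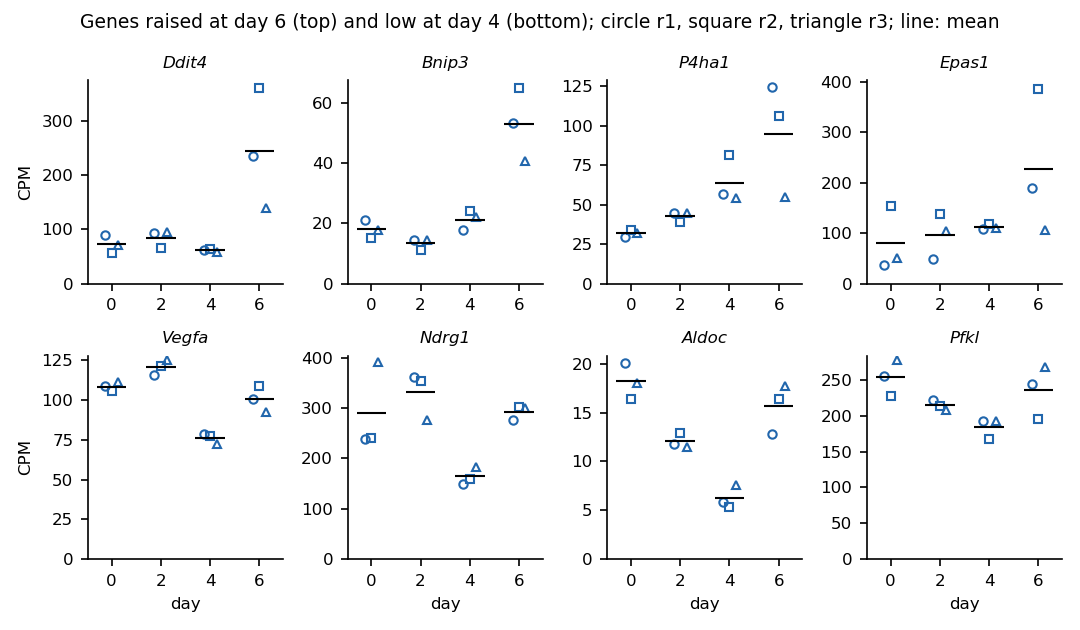
CPM by day for 4 genes raised at day 6 (top) and 4 genes low at day 4 (bottom), with 1 point per library (circle replicate 1, square replicate 2, triangle replicate 3) and a line at the day's mean. Ddit4 and Bnip3 are highest in the 3 day 6 libraries, and Vegfa and Ndrg1 are lowest in the 3 day 4 libraries. In CPM, Epas1 is spread most at day 6 (227 ± 144 CPM, against 80.0 ± 64.3 CPM at day 0, SD).

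The day 6 libraries differed among themselves. The median coefficient of variation of the listed genes was 12.8%, 11.4%, 9.59% and 22.4% at days 0, 2, 4 and 6, against 16.9%, 11.2%, 11.8% and 25.1% for all genes. Replicates 1, 2 and 3 held the highest day 6 value for 10, 13 and 14 of the 37 genes and the lowest for 3, 17 and 17. Over all genes tested, replicate 2 was highest for 48.5% and lowest for 38.7%, and replicate 3 highest for 28.2% and lowest for 49.4%. The CPM of replicate 2 was over 2 times the mean of the other libraries for Slc2a3 (2.67), Epas1 (2.61), Eno2 (2.53), Ldhb (2.22), Pfkm (2.1) and Pfkfb3 (2.04). It was lowest against them for Tpi1 (0.504) and Hk2 (0.507). Fibroblast markers scored 9.08, 9.69 and 8.36 and epithelial markers 9.26, 8.36 and 9.85 in replicates 1, 2 and 3 (mean log2(CPM + 1)), and their part in these orders was not tested. Hif1a, Ndrg1, Ankrd37 and Slc2a1 differed least between the 3 libraries, with 1.09, 1.10, 1.10 and 1.10 times as much in the highest as in the lowest.

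Other genes of the same pathways, taken from lists that leave out the 37, went both ways, and each count is read beside the 21.2% higher and 12% lower of all genes at day 4 and the 23.5% and 12.4% at day 6. Of 20 tested further genes of glycolysis and gluconeogenesis, 2 were higher and 6 lower at day 4 than at day 0, and 1 higher and 8 lower at day 6. The lower ones were led by Pck1, the gluconeogenic carboxykinase (10.4 ± 6.39 CPM at day 6 against 131 ± 16.4 CPM at day 0, -3.68 ± 0.30, adjusted p = 5.1e-06). The muscle enolase Eno3 (-1.63 ± 0.30) and the galactose enzyme Galm (-1.51 ± 0.28) were also lower. The higher gene was Adpgk, an ADP-dependent glucokinase (0.61 ± 0.13). Of 15 tested genes of pyruvate and lactate handling, 3 were higher, near the background share, and 5 lower at day 6. Pdk4 was higher at day 6 (1.15 ± 0.32, adjusted p = 0.0161) and the only one of these lists' genes called at day 2 (1.94 ± 0.32, adjusted p = 0.0305), while its relative Pdk2 was lower at day 6 (-1.06 ± 0.16, adjusted p = 0.000519). The lactate and pyruvate carrier Slc16a7 was lower at day 6 too (-1.15 ± 0.25).

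Of 9 other sugar carriers tested, 2 were higher, near the background share, and 3 lower at day 6. Slc2a6, a lysosomal carrier of inflammatory macrophages, was higher (2.48 ± 0.32, adjusted p = 0.000131), as was Slc2a12 (1.00 ± 0.32). The apical sodium-glucose carrier Slc5a1 (-1.44 ± 0.46), the fructose carrier Slc2a5 (-1.19 ± 0.28) and Slc2a10 (-1.05 ± 0.30) were lower. In the pentose phosphate branch, which makes NADPH, 2 of 8 genes were higher at day 6, near the background share and with none lower, G6pdx (0.86 ± 0.17, adjusted p = 0.00203) and H6pd (1.28 ± 0.24, adjusted p = 0.00192). Of 10 partners and regulators of the hypoxia factors, Arnt alone was called higher at day 6 than at day 0 (0.49 ± 0.17, adjusted p = 0.0431), and the endoplasmic reticulum lectin Os9 alone was called lower at day 4 than at day 0 (-0.37 ± 0.12, adjusted p = 0.0381). Lower at day 4 than at day 2 were Hif3a (-1.21 ± 0.36, adjusted p = 0.0228), the asparaginyl hydroxylase gene Hif1an (-0.41 ± 0.12, adjusted p = 0.0244) and Cited2, which encodes a competitor of the factors (-0.94 ± 0.15, adjusted p = 0.000601). Hif3a was then higher at day 6 than at day 4 (1.82 ± 0.36, adjusted p = 0.022) and was not called at day 6 against day 0 (0.87 ± 0.36, adjusted p = 0.0808).

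Of 39 other hypoxia targets tested, 9 were higher and 5 lower at day 4, and 17 higher and 3 lower at day 6. Of all genes 21.2% and 12% were higher and lower at day 4 and 23.5% and 12.4% at day 6, so the day 4 counts were near the background. Among those higher at day 6 was Angptl4, an inhibitor of lipoprotein lipase (41.2 ± 13.1 CPM at day 6 against 1.43 ± 0.821 CPM at day 0, 4.13 ± 0.30, adjusted p = 2.07e-06). Lox, which crosslinks collagen (3.79 ± 0.43), and Hmox1, heme oxygenase (3.08 ± 0.35), were also higher. Selenbp1 (-1.66 ± 0.26), Stc2 (-0.76 ± 0.26) and Wsb1 (-0.45 ± 0.11) were lower. The median log2 fold change of these 39 genes at day 6 was 0.40, against 0.70 for the 37 genes and 0.14 for all genes.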

How the data were processed

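Poly(A) RNA of mouse mid-colon was sequenced as pairs of 150-base reads from libraries with second-strand dUTP removal, 8 amplification cycles and a mean insert of 300 bases, per the labels' protocols. The submitters' processing notes name the aligner HISAT2 2.2.1, the read counter featureCounts 2.0.1 and the build mm10. The sources used here do not give the gene annotation, nor the strand setting. The authors deposited CPM per gene symbol. Columns summed to 992026 to 998040 CPM. Low values stepped by 1 read, and 99.9961% to 100% of values per library came within 0.1 of a whole read, which gave back read counts for edgeR and DESeq2. Amplified reads are not independent molecules.

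Day and replicate were read from the labels. All genes that reached 1 CPM in 3 or more libraries were fitted over the 12 libraries in limma 3.58.1 under R 4.3.3, as log2(CPM + 1) with trend and robust moderation, and Benjamini-Hochberg adjustment over all genes of a comparison at 0.05. The scale understates changes of low genes. Unless another tool is named, adjusted p-values are limma's, and changes are log2 fold changes ± SE. The procedure was tried on simulated data with the same dispersion for all genes and days, unlike the wider spread of the day 6 libraries. No result here rests on that trial. Alternatives were pseudocounts of 0.5 and 5, no filter, a filter at a mean of 5 CPM, quantile normalization, median-of-ratios scaling, plain moderation, a replicate block, only the days compared, edgeR 4.0.16, DESeq2 1.42.0, and leaving out each library. Cell type scores are means of log2(CPM + 1) over a list.

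The 37 genes, the comparison lists and the tests were chosen with earlier results of these data known. Values in every library are given for genes with the largest changes, for the hypoxia factors and their hydroxylases and for the rate-limiting steps, and ranges, means or fold changes for others. Of the comparison lists, up to 4 genes per direction with the largest change are named, apart from items not reported here. Coordinates and exon lengths are those of GENCODE M21, in which 24732 of the 25904 symbols and all 37 genes were found. Levels per kilobase divide by the merged exons of all annotated transcripts of a gene. Ranks and shares between genes depend on that length. Reads of overlapping genes may be shared. Promoter windows are RefSeq's.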

Additional observations from a re-analysis of the deposited data

How the results depend on the processing

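Over the 37 genes, the 5 comparisons and the F test, 5069 recomputed results were compared with those reported. Of these, 4817 kept direction and side of the threshold, 159 lost a call and 93 gained one, and none of the called ones changed sign. The counts of called genes stayed within 1.5 times those reported, except as follows. DESeq2 called 1 gene lower at day 2 than at day 0 (0 in limma), 8 lower at day 4 than at day 0 (5 in limma; 8 in edgeR as well), 2 lower at day 6 than at day 0 (1 in limma), 8 lower at day 4 than at day 2 (5 in limma) and 9 higher at day 6 than at day 4 (5 in limma). With only the 2 days compared, 12 genes were higher at day 6 than at day 0 (21), 8 lower at day 4 than at day 2 (5) and 0 higher at day 6 than at day 4 (5); that fit has fewer libraries to estimate the spread. The cause was otherwise not tested. Of all genes, DESeq2 called 2.34% lower at day 2, 19.5% lower at day 4 and 19.3% lower at day 6 than at day 0. It called 18.6% lower at day 4 than at day 2, and 5.5% higher at day 6 than at day 4. In edgeR 16.1% were lower at day 4 than at day 0. Shares over all genes are not given here for the fits on only the 2 days compared.

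Leaving out each library in turn gave 0 to 1 genes lower at day 2 than at day 0, 7 to 17 higher and 4 to 7 lower at day 4 than at day 0, and 15 to 21 higher and 1 lower at day 6 than at day 0. It gave 12 to 15 higher and 3 to 7 lower at day 4 than at day 2, 4 to 11 higher at day 6 than at day 4, and 20 to 27 by the F test. The extremes came without day 6 replicate 2 (1 lower at day 2, 17 higher at day 4), without day 2 replicate 2 or day 4 replicate 1 (3 lower at day 4 than at day 2) and without day 6 replicate 3 (11 higher at day 6 than at day 4). Shares over all genes are not given here for these fits.

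Deviations from the day means correlated between libraries of the same number with r of -0.212 to 0.636 (median 0.0384, 18 pairs). Between libraries of other numbers r was -0.620 to 0.536 (median -0.0180, 36 pairs). These correlations cannot settle whether the replicate numbers pair the libraries. With the replicate block, 12 genes were higher and 6 lower at day 4 and 21 and 1 at day 6 against day 0, 14 higher and 4 lower at day 4 than at day 2, 5 higher at day 6 than at day 4, and 26 were called by the F test. Of all genes, the block fit called 22.8% higher and 12.8% lower at day 4 and 24.7% and 13.3% at day 6 against day 0. It called 22.0% higher and 13.6% lower at day 4 than at day 2, and 2.0% higher at day 6 than at day 4. The 3 libraries a day limit the precision.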
